A study of Mus musculus with 3 samples.

Results

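This comparison set bone marrow cells of mice that had been irradiated and given cannabidiol (IR+CBD) against those of unirradiated mice (Control), and it asked what still differed from normal marrow at 14 days post-irradiation in spite of the treatment. The cells were chosen by a fixed rule, namely every barcode with at least 200 detected genes and at most 5% of its UMIs (unique molecular identifiers, each standing for 1 captured RNA molecule) from mitochondrial genes. That left 10674 Control and 10273 IR+CBD cells, or 20947 of the 31292 kept cells of the whole series. Both groups were male C57BL/6 mice of no other stated genotype, and no age of these animals was given in the sources used here. The IR+CBD mice received 6 Gy of gamma rays from cobalt-60 and cannabidiol (CBD), a non-intoxicating compound of the hemp plant, dissolved in soybean oil with a little DMSO and injected intraperitoneally before and again after the exposure. A further library came from irradiated mice without the drug (IR), for which the study's methods describe a solvent control of the same oil and DMSO, and its values are set beside the others without a role in the comparison. Whether the Control mice also received solvent is not given in the sources used here.

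Each group was 1 droplet library made from the pooled bone marrow nucleated cells (BMNCs) of 3 mice, so no spread between animals could be measured, no test between groups was possible and every interval below covers counting error only. Before loading, Lin-Kit+ cells (which lack mature lineage markers and carry the receptor of stem cell factor), Lin-Kit- cells and mature Lin+ cells had been sorted and remixed 5:4:1, so a share of cells refers to that mix and not to the marrow itself. The kept cells held 194839224, 202361682 and 173466089 UMIs in Control, IR and IR+CBD, in that order, with a median of 12479.5, 14211 and 12502 UMIs per cell. Between Control and IR+CBD 41 barcodes were shared. Barcodes under the minimum of 200 genes made up 0.361%, 2.09% and 3.64% of those deposited, and globin transcripts took 0.00816%, 7.32% and 4.38% of their UMIs, against 0.0273%, 0.130% and 0.108% in kept cells. Mitochondrially encoded genes, without the mitochondrial ribosomal RNAs, took a larger part of the UMIs of these barcodes, 28.1%, 28.4% and 32.3%. Predicted doublets, droplets likely to hold more than 1 cell, numbered 911 in Control and 844 in IR+CBD and were kept, and values that changed greatly without them are given below with and without.

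Blood formation runs from rare haematopoietic stem cells through multipotent progenitors to myeloid, erythroid, megakaryocytic and lymphoid precursors, and dividing progenitors are among the most radiosensitive cells of the body. After a sublethal dose the surviving stem and progenitor cells rebuild the marrow over weeks, and erythroid and granulocytic precursors usually return earlier than lymphoid ones. Type I and II interferons switch on a shared set of antiviral and antigen presentation genes in blood cells, and the immediate early genes are transcription factors that respond within minutes to growth factors, stress and handling.

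To follow the lineages without clustering, cells were gated by raw UMI counts of a few lineage genes. These gates were at least 10 UMIs of Mpo, the myeloperoxidase of granulocyte and monocyte precursors; at least 2 of Klf1, the master transcription factor of red cell formation; at least 2 of Cd79a, a signalling chain of the B cell receptor; at least 5 of Retnlg, a gene of maturing neutrophils; at least 3 of Siglech, a lectin of plasmacytoid dendritic cells (pDCs); and at least 1 each of Cd34 and Adgrl4, surface molecules of stem and progenitor cells and also of endothelium. A cell could enter several gates, and 20.9% of Control and 19.3% of IR+CBD cells did so. At least 1 gate held 83.5% of Control and 86.2% of IR+CBD cells.

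The shares of the erythroid and pDC gates differed from unirradiated marrow in opposite directions. Klf1 cells made up 5.49% of the Control library (586 cells), 14.0% of the IR library (1446 cells) and 11.5% of the IR+CBD library (1181 cells), so that their share in the treated library was 2.09 times that of Control (95% interval 1.89 to 2.32). Siglech cells made up 2.56% (273 cells), 0.445% (46 cells) and 0.769% (79 cells), a ratio of 0.301 (0.231 to 0.388). The share with Cd34 and Adgrl4 was 29.2%, 18.9% and 19.2%, a ratio of 0.657 (0.621 to 0.695). In all 3 of these gates the IR+CBD library stood on the same side of Control as the IR library.

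The remaining gates lay nearer to Control. Mpo cells made up 27.1%, 26.7% and 30.5% of the 3 libraries, a ratio of 1.13 (1.07 to 1.19). The Retnlg gate held 9.41%, 10.4% and 11.8%, a ratio of 1.26 (1.16 to 1.37). Cd79a cells formed 33.0%, 39.4% and 33.6%, and the ratio of 1.02 had an interval of 0.972 to 1.07 that held 1. Among the 6 gates, the Cd79a gate was thus the one in which counting error covered the difference between treated and unirradiated marrow.

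**Figure D1:**
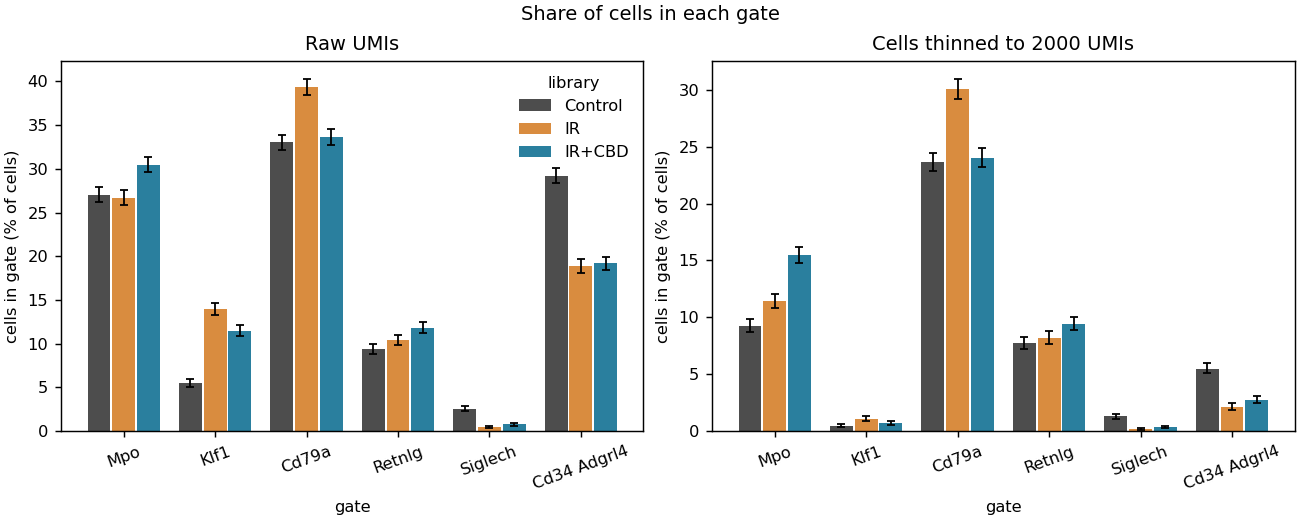
Share of kept cells in each gate, in percent, for the Control, IR and IR+CBD libraries, from raw UMIs (left) and from cells thinned to 2000 UMIs (right), as bars with exact 95% binomial intervals that cover counting error only. From raw UMIs the Klf1 gate rises from 5.49% in Control to 11.5% in IR+CBD, the Siglech gate falls from 2.56% to 0.769%, and the Cd79a gate stands at 33.0% and 33.6%.

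A gate set in raw UMIs depends on how deep a cell was read. Median depth in the Mpo gate was 34921 UMIs in Control and 24505.5 in IR+CBD. When every cell was thinned to 2000 UMIs, which left out 401 shallower Control and 452 IR+CBD cells, the Mpo share was 9.28% in Control and 15.4% in IR+CBD, a ratio of 1.67 (1.53 to 1.81) in place of 1.13. The same thinning gave ratios of 1.54 (1.05 to 2.26) for Klf1, 0.258 for Siglech, 0.502 for Cd34 with Adgrl4, 1.02 for Cd79a and 1.22 for Retnlg. The direction of each gate was kept, but at equal depth the Klf1 ratio no longer exceeded that of Mpo.

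The gates of Klf1, Siglech, Cd79a and Cd34 with Adgrl4 were checked against marker genes. The red cell membrane markers summed to 1090 CPM (UMIs per 1000000 of the summed cells) in Klf1 cells of Control and 1253 CPM in those of IR+CBD, against 89.5 and 120 CPM in Mpo cells. In the Siglech gate the pDC markers summed to 9519 and 11116 CPM, against 432 and 383 CPM in Mpo cells. In the Cd79a gate the pre-B receptor and recombination genes summed to 3986 and 3674 CPM, without Cd79a itself. The secondary and tertiary granule markers of neutrophils summed to more there, 12187 and 15268 CPM, though below the 33746 and 41329 CPM of all kept cells. Eosinophil markers stood at 54.3 and 248 CPM in that gate. The sums of the Cd79a gate are thus not those of B cells alone. By Cdh5, the cadherin that defines endothelium, the gate of Cd34 with Adgrl4 was not an endothelial one, with 15 UMIs in Control and 5 in IR+CBD. The 12 endothelial markers together still summed to 212 and 198 CPM there, against 163 and 134 CPM in all kept cells. Among them Pecam1, an adhesion molecule that blood progenitors also carry, reached 116 and 117 CPM. That gate overlapped with the Mpo gate in 1930 Control and 1571 IR+CBD cells, and 1168 of its Control cells but 385 of its IR+CBD cells were in neither the Mpo nor the Klf1 gate.

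UMIs were then summed over all kept cells, and genes with at least 1000 UMIs over both libraries were compared. A gene was said to have risen or fallen where its CPM ratio, IR+CBD over Control, was at least 1.5 or at most the inverse of that, whatever the interval. Of 11469 genes, 230 rose (2.01%) and 397 fell (3.46%), and the median log2 ratio was -0.04. In such sums, fewer cells of a type and less RNA per cell cannot be told apart.

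Red cell genes led those that remained high. Hbb-bs, an adult beta globin, stood at 113, 596 and 474 CPM in Control, IR and IR+CBD (the order used throughout), 4.21 times the Control level (4.15 to 4.27). The alpha globin Hba-a2 measured 34.7, 155 and 140 CPM (ratio 4.04) and Hba-a1 74.0, 326 and 280 CPM (3.78). The treated library thus kept a globin level nearer to IR than to Control. Of 10 tested genes of the red cell membrane 9 rose, among them Rhd, the Rhesus antigen (27.9, 72.0 and 71.4 CPM, ratio 2.56), and Ermap, another blood group protein (35.1, 85.4 and 83.1 CPM, ratio 2.37). Of 11 genes of heme synthesis and iron uptake 7 rose, with the heme enzyme Cpox at 54.9, 114 and 106 CPM (1.92) and the transferrin receptor Tfrc at 61.8, 102 and 111 CPM (1.79). Among erythroid transcription factors, counted with the erythropoietin receptor, 6 of 10 rose, and the receptor gene Epor itself measured 10.4, 28.0 and 24.7 CPM (2.39).

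Further genes with the highest ratios were Tjp1, a scaffold of tight junctions, at 3.74, 20.7 and 18.7 CPM (ratio 5.01, 4.62 to 5.44), and Cldn13, a claudin that erythroid precursors carry, at 18.2, 56.2 and 50.8 CPM (2.79). Gdf3, a ligand of the TGF-beta family, measured 6.88, 21.7 and 19.8 CPM (2.88), and the retinal dehydrogenase Aldh1a1 5.66, 20.4 and 15.9 CPM (2.82). Mt2, a metallothionein that binds zinc and copper, stood at 47.7, 130 and 133 CPM (2.78). In each of these 5 genes the treated library lay on the side of IR, far from Control. Btnl10 and Trim10, at 1.40 and 1.35 CPM in Control and 4.43 and 4.28 in IR+CBD, rose 3.18 and 3.16 times.

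Among the genes that remained low, Nrg1, a ligand of the ErbB receptors, had one of the lowest ratios. It fell from a Control level of 32.7 CPM to 6.03 and 4.20 CPM (ratio 0.129, 0.119 to 0.139), and was found in 1588 Control and 429 IR+CBD cells. Bex1 measured 5.51, 0.959 and 0.917 CPM (0.166), the homeobox gene Nkx2-3 5.13, 0.771 and 1.02 CPM (0.199), and the zinc finger gene Klf12 5.26, 1.04 and 1.22 CPM (0.231). Ccser1, Grm8, Shisa8, Hdgfl3 and Vldlr fell likewise, with ratios between 0.171 and 0.264. Mir99ahg, the host transcript of a microRNA cluster, stood at 26.0, 5.75 and 6.13 CPM (0.235), and Klk8, a serine protease, at 26.6, 5.49 and 7.41 CPM (0.279). For all of these genes the treated library stood near IR. Ighg2c, the heavy chain of an IgG isotype, had 31.3, 10.1 and 0.11 CPM, but it came from 69 Control and 3 IR+CBD cells and 1 Control cell held 44.5% of its UMIs.

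**Figure D2:**
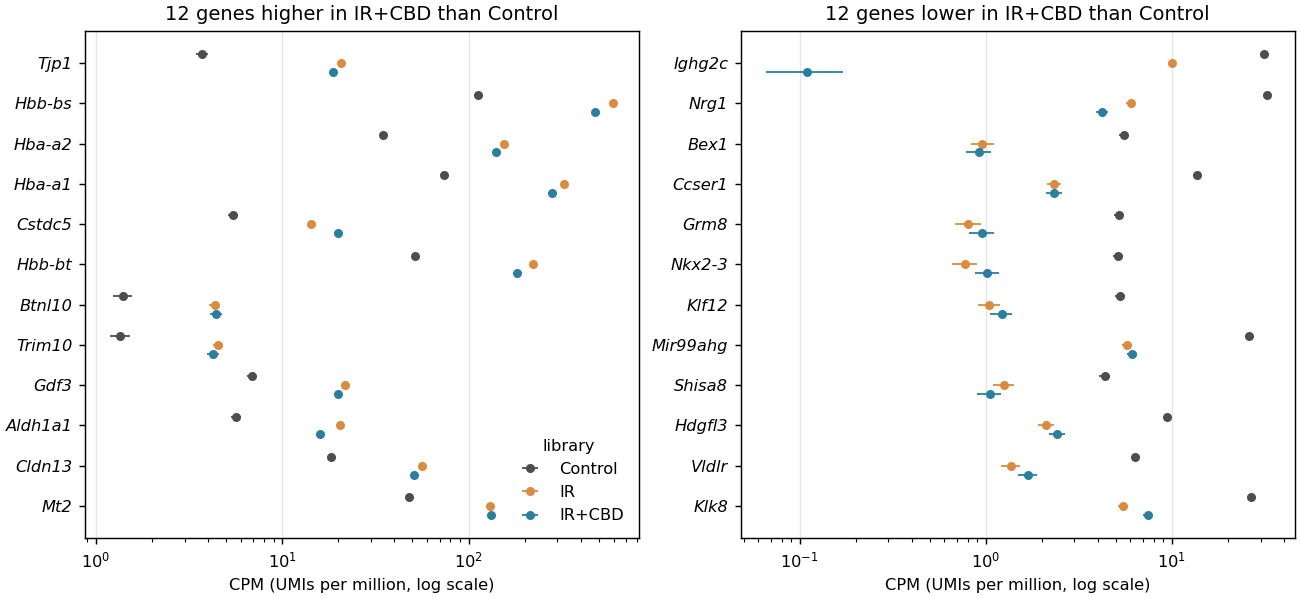
CPM over all kept cells, on a logarithmic axis, of the genes with the highest and lowest ratios of IR+CBD over Control, in the Control, IR and IR+CBD libraries. For nearly every gene the IR+CBD point lies close to the IR point: Tjp1 reads 3.74, 20.7 and 18.7 CPM and Nrg1 32.7, 6.03 and 4.20 CPM.

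Genes of the stem and progenitor compartment moved in both directions, with more of them below Control. Hlf, a transcription factor of stem cells, measured 28.1, 9.42 and 11.8 CPM in Control, IR and IR+CBD (ratio 0.421), Flt3, the cytokine receptor of multipotent progenitors, 41.8, 14.9 and 17.8 CPM (0.425), and Dntt, the polymerase that adds nucleotides to antigen receptor joints, 118, 49.9 and 42.1 CPM (0.358). These 3 were lower in both irradiated libraries, whereas the stem cell regulator Mllt3 stood at 52.2, 77.6 and 73.8 CPM (1.41) and Slamf1, the marker CD150, with 233 and 433 UMIs and so under the minimum for the test, at 1.20, 2.53 and 2.50 CPM (2.09). Of 9 stem cell markers tested 3 fell and none rose, with a median log2 ratio of -0.40. Of 22 cytokine receptor genes 6 fell and 1 rose. Mecom, at 45.4, 30.2 and 37.6 CPM, and Il7r, the receptor of interleukin 7, at 35.8, 25.6 and 27.4 CPM, lay below Control by less than 1.5-fold.

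Holding the mix of cells at that of Control changed many of these values. When the gates and their overlaps, sorted into 10 classes of at least 50 cells, were weighted by their share of the Control UMIs, 77 genes rose and 146 fell in place of 230 and 397. The median log2 ratio of the red cell membrane genes then went from 1.34 to 0.36, that of heme genes from 0.69 to 0.18, that of pDC markers from -1.20 to -0.07 and that of stem cell markers from -0.40 to 0.04. Among stem and progenitor genes, Mllt3 went from 1.41 to 1.09, Mecom from 0.829 to 1.44 and Flt3 from 0.425 to 0.677. Rhd had a ratio of 1.29, Klf1 of 1.16, Cldn13 of 1.38 and Mt2 of 1.48 after weighting, all under 1.5-fold. By contrast, Tjp1 (3.68), Gdf3 (2.16), Hbb-bs (3.08), Nrg1 (0.129), Mir99ahg (0.389), Ccser1 (0.321) and Nr4a1 (0.568) stayed past it. Aldh1a1 (1.57, from 2.82) and Dntt (0.577) did so more narrowly.

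Interferon response genes stood near Control. Over 54 measured members their median log2 ratio was 0.07 for IR+CBD, whereas that of IR over the same Control was 1.23, and of 43 tested members 3 rose and 1 fell. Isg15, a ubiquitin-like protein, measured 12.3, 67.1 and 19.4 CPM (ratio 1.58), the antiviral protein Oasl1 6.10, 32.8 and 11.1 CPM (1.81), and Rsad2, also called viperin, 2.76, 13.6 and 5.22 CPM (1.89). These 3 genes thus remained above Control at much less than their IR level. Ifi27l2a (70.2, 433 and 68.1 CPM) and Rtp4 (6.83, 40.5 and 7.73 CPM) had ratios of 0.97 and 1.13. Ly6a, which encodes the stem cell antigen Sca-1, was the member that fell, with 13.7, 25.0 and 6.54 CPM (0.476). The genes of MHC class I, which present peptides to CD8+ T cells, had a median log2 ratio of 0.07, against 0.64 for IR, and 1 of 17 rose, H2-Q7 (59.7, 203 and 93.0 CPM, 1.56). Class II genes had a median of -0.42 and 1 of 10 fell, H2-Ob (13.9, 8.81 and 8.40 CPM, 0.603).

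Immediate early genes remained low. Of 23 tested members none rose and 7 fell, and the median log2 ratio over 25 measured members was -0.52 for IR+CBD and -0.60 for IR over the same Control. Nr4a1, an orphan nuclear receptor linked to the quiescence of stem cells, measured 83.8, 22.2 and 30.6 CPM in Control, IR and IR+CBD (ratio 0.365, 0.354 to 0.377), and its relative Nr4a3 10.8, 2.91 and 3.59 CPM (0.332). Egr1 stood at 179, 77.9 and 92.7 CPM (0.517), Fos at 286, 150 and 165 CPM (0.576) and Klf4 at 36.0, 18 and 18.6 CPM (0.518). In each gene named here the treated library was above IR and well under Control. Jun, at 643, 425 and 496 CPM, lay below Control by less than 1.5-fold (0.772). With the classes of cells weighted as in Control the median was -0.27. Since these genes respond to tissue handling, and 1 library was prepared per group, handling and treatment cannot be told apart here.

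**Figure D3:**
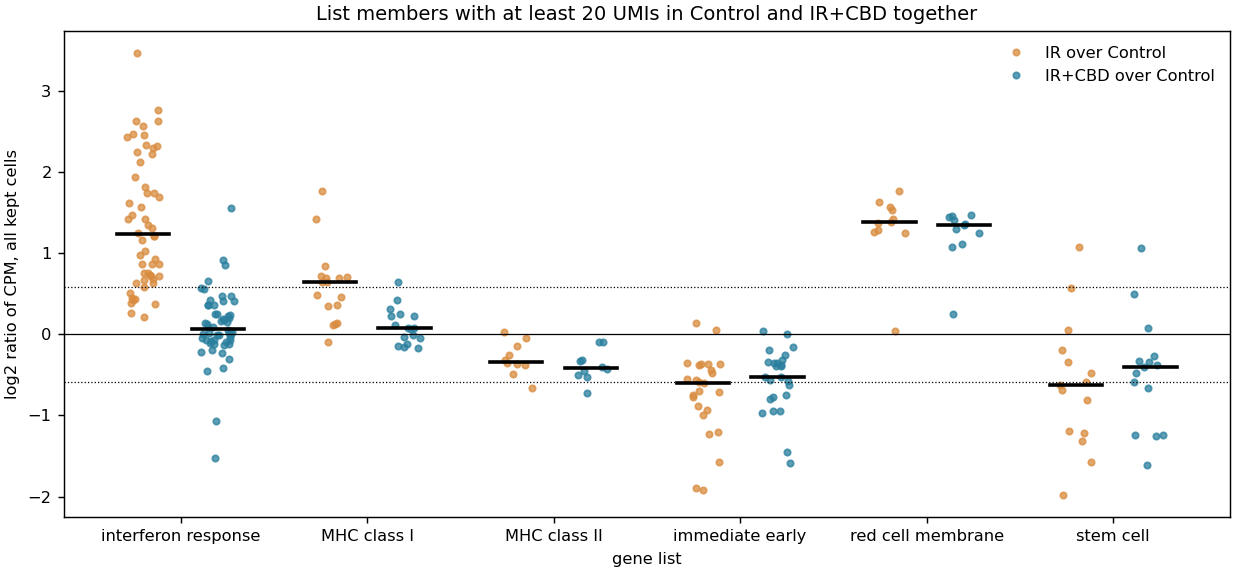
Log2 CPM ratio, IR+CBD over Control and IR over Control, of each member with at least 20 UMIs in 6 gene lists over all kept cells, with the median of each list as a bar and 1.5-fold as dotted lines. Interferon genes centre on 0.07 for IR+CBD and on 1.23 for IR, while immediate early genes centre on -0.52 and -0.60. Both ratios share the Control library.

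Over all kept cells, several housekeeping and stress programmes did not reach 1.5-fold in any tested member. None of 27 DNA repair genes, 78 cytosolic ribosomal protein genes, 9 genes of the BCL2 family, 20 genes of cholesterol synthesis and uptake, 25 S phase genes or 25 G2/M genes rose or fell, with medians between -0.09 and 0.03 on the log2 scale. Of 77 nuclear genes of the respiratory chain 1 did. Among 16 tested p53 response genes none rose and 2 fell, one of them the cell cycle inhibitor Cdkn1a with 75.7, 36.6 and 38.6 CPM (0.510). Weighting the classes of cells as in Control gave Cdkn1a a ratio of 0.681, within 1.5-fold. The p53 target Pmaip1 had a ratio of 1.48, just under the limit, and of 1.72 with the same weighting. It rose in 5 of the 6 gates, as given below. Of 13 genes listed as cannabidiol targets 5 reached the minimum of UMIs and none of them rose or fell.

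Granulocyte genes were slightly higher than in Control. Secondary and tertiary granule genes had a median log2 ratio of 0.30, and none of 16 passed 1.5-fold. Camp, an antimicrobial cathelicidin, measured 2372, 2644 and 3023 CPM (ratio 1.27), and S100a8, a subunit of calprotectin, 11444, 11350 and 14226 CPM (1.24). The stefin A genes, which encode cysteine protease inhibitors and lie in 1 cluster of near-identical copies whose reads may be shared among them, rose in 6 of 6 tested members. Cstdc5 stood at 5.46, 14.3 and 19.9 CPM (3.64) and Stfa1 at 10.2, 16.6 and 25.8 CPM (2.53), so here the treated library exceeded both others. G0s2, an inhibitor of fat breakdown, rose among the mature neutrophil genes (43.6, 57.5 and 69.4 CPM, 1.59), and Cxcl10, a chemokine that attracts activated T cells, reached 45.5, 37.0 and 76.4 CPM (1.68). Monocyte genes lay below Control, with 4 of 10 fallen, among them fibronectin, Fn1 (23.9, 9.94 and 12.4 CPM, 0.521).

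The same lists were then followed within each gate, where genes with at least 100 UMIs over both libraries were compared. The map of list medians covers the main lists, and the gates are described in turn from myeloid to stem and progenitor cells.

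**Figure D4:**
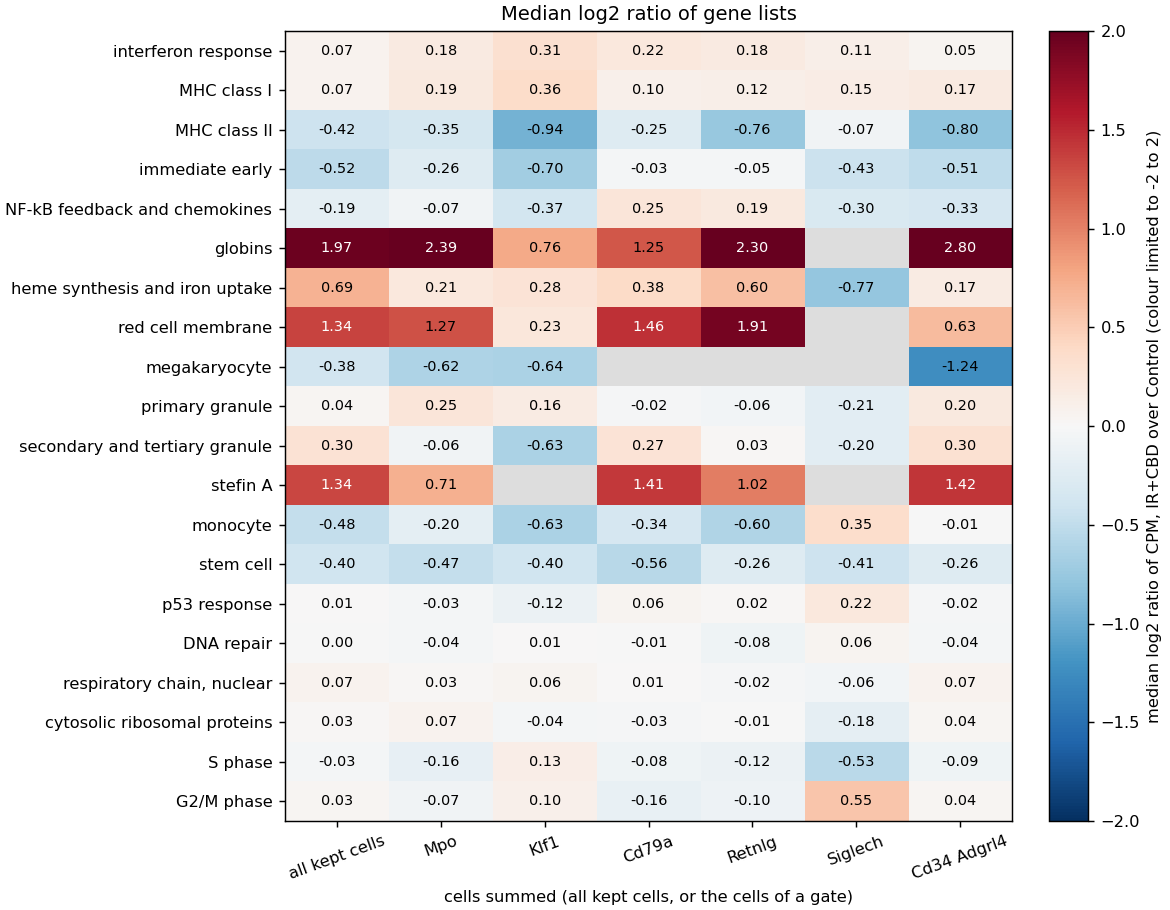
Median log2 CPM ratio, IR+CBD over Control, of gene lists (rows) in all kept cells and in the 6 gates (columns) on a colour scale limited to -2 and 2, with each median printed and grey where too few members could be measured. Immediate early genes are lowest in the Klf1 gate (-0.70), interferon genes highest there (0.31), and globins, where not grey, lie between 0.76 in the Klf1 gate and 2.80 in the gate of Cd34 with Adgrl4, where thinning gave -0.090.

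Among Mpo cells 407 of 15006 genes rose (2.71%) and 433 fell (2.89%). Genes of primary granules, the first granules that neutrophil precursors make, had a median log2 ratio of 0.25: none of 10 rose, and Ctsc, the protease that activates granule enzymes, fell with 120, 97.6 and 69.8 CPM (0.581). Elane, neutrophil elastase, stood at 3258, 3628 and 4484 CPM (1.38). The highest ratios were those of genes found in few cells. Slit2, a guidance ligand, measured 0.433, 0.188 and 6.84 CPM (15.8, 11.6 to 21.9) but in 30 Control and 25 IR+CBD cells, and Ly6k, a Ly6 family surface protein, 0.684, 0.807 and 4.06 CPM (5.94, 4.58 to 7.78) in 33 and 129 cells. Nrg1 fell from 51.0 to 10.6 and 6.73 CPM (0.132, 0.121 to 0.144), and the lysosomal protease Ctsf from 1.40 to 0.254 and 0.135 CPM (0.0966). Lgals3, the galectin of monocytes and macrophages, fell with 64.5, 46.3 and 32.9 CPM (0.510).

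In the same gate, globins summed to 23.9, 215 and 116 CPM. Their median log2 ratio of 2.39 went to 1.11 without predicted doublets, and 1 cell held 38.2% of the Hbb-bs UMIs of IR+CBD. Likewise the red cell membrane genes of this gate went from 1.27 to 0.19 without doublets. Ighg2b fell to 0.0197 of its Control value, of which 1 Control cell held 97.2%. The part of doublets and free RNA in these values was not tested further.

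Among Klf1 cells 135 of 11818 genes rose (1.14%) and 666 fell (5.64%), while thinning to 2000 UMIs, which left 316 genes above the minimum, gave 10 risen and 0 fallen. Within these erythroid cells the red cell programme was close to Control: none of 11 membrane genes and none of 9 erythroid transcription factors rose or fell, with Ermap at 260, 262 and 284 CPM (ratio 1.09). Globins stayed higher, with Hbb-bs at 350, 855 and 629 CPM (1.79, 1.75 to 1.84) and Hba-a2 at 83.0, 194 and 157 CPM (1.88). Tfrc, at 162, 214 and 245 CPM, was the heme and iron gene that rose (1.51, 1.46 to 1.57). Tjp1 reached 15.8, 54.5 and 51.1 CPM (3.23) and was found in 193 Control and 850 IR+CBD cells.

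Interferon genes remained further from Control in Klf1 cells than in the sum of all cells. Of 43 tested members 10 rose and 1 fell, with a median log2 ratio of 0.31, against 1.31 for IR over Control. Igtp, a GTPase induced by interferon gamma, measured 3.69, 24.3 and 11.1 CPM (3.0, 2.39 to 3.79), Rsad2 1.97, 15.9 and 5.30 CPM (2.69) and Rtp4 3.49, 43.8 and 8.60 CPM (2.47). The related GTPase gene Gm12250 was among the 6 highest of the gate at 2.26, 21.4 and 7.83 CPM (3.47). In all 4 the treated library lay between Control and IR. Whether the list differed between gates was not tested.

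Immediate early genes fell in 14 of 23 tested members in Klf1 cells, with none risen and a median log2 ratio of -0.70. Egr1 measured 102, 48.8 and 35.3 CPM (0.346), Fos 91.1, 48.0 and 43.8 CPM (0.480) and Jun 309, 197 and 168 CPM (0.543). Here the treated library stood below IR in each of these genes. Markers of basophils and mast cells also fell, in 4 of 4 tested members. Mcpt8, a basophil protease, stood at 21.1, 28.7 and 6.71 CPM (0.317) and Prss34, another one, at 45.5, 19.3 and 2.60 CPM (0.057). Both came from few cells. Mcpt8 was found in 44 Control and 84 IR+CBD cells, and 1 cell held 33.2% and 39.3% of its UMIs. Prss34 was found in 36 Control and 30 IR+CBD cells, and 1 cell held 45.8% and 76.8% of its UMIs. Auts2 (47.6, 12.1 and 7.92 CPM, 0.166), Tceal3 (11.9, 1.45 and 1.72 CPM, 0.145) and the sialyltransferase St8sia6 (10.3, 2.78 and 1.52 CPM, 0.148) were also among the lowest. Rpl39l had the highest ratio, 18.5 (8.86 to 46.5), but its UMIs came from 1 Control and 24 IR+CBD cells, and Igha rose from 0.328 to 2.41 CPM, below its IR level of 30.7 CPM. Eosinophil markers went the other way from those of basophils, summing to 19.0, 16.5 and 70.9 CPM. Among them Prg2 was one of the highest genes of the gate, but its ratio was 0.805 once cells of several gates were left out.

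In Cd79a cells, whose share differed from Control by less than counting error, 385 of 12755 genes rose (3.02%) and 398 fell (3.12%). The transcription factors of the B lineage stood at the Control level, with none of 9 risen or fallen, Ebf1 at 4481, 4223 and 4515 CPM (1.01) and Pax5 at 419, 411 and 452 CPM (1.08). Of 9 genes listed for the pre-B receptor and recombination 4 fell. They were the surrogate light chain genes Vpreb1 (503, 493 and 293 CPM, 0.583), Vpreb2 (68.5, 88.7 and 42.2 CPM, 0.616) and Igll1 (289, 271 and 170 CPM, 0.588), and Dntt (266, 168 and 152 CPM, 0.573). For the surrogate light chain genes the IR library was near or above Control, while IR+CBD was below both. The recombinase genes Rag1 and Rag2 had ratios of 1.18 and 0.861. Vpreb1 was found in 1056 Control and 592 IR+CBD cells.

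Several leading genes of this gate came from few cells. Ighg2c fell from 166 CPM in 13 Control cells to 0.698 in 2 IR+CBD cells, and the variable segments Igkv14-126 and Ighv11-2, from 13 and 10 Control cells, had ratios of 0.00659 and 0.017. Tex11, a meiosis gene, stood at 0.0316, 0.0556 and 4.85 CPM and was found in 1 Control and 42 IR+CBD cells, a ratio of 153 with an interval of 27.0 to 6099 around a single Control UMI. Mir99ahg fell in many cells, from 21.7 CPM in 354 Control cells to 2.44 in 29 IR+CBD cells (3.56 in IR, ratio 0.112). Tjp1 (1.39, 10.6 and 6.71 CPM, 4.82) and Gdf3 (1.71, 11.8 and 7.02 CPM, 4.11) rose in Cd79a cells too.

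Retnlg cells, the maturing neutrophils, had 255 of 9886 genes risen (2.58%) and 242 fallen (2.45%). Their granule genes were close to Control, with none of 16 secondary and tertiary granule genes past 1.5-fold and a median log2 ratio of 0.03: Camp measured 17787, 18819 and 19503 CPM (1.10) and the lactoferrin gene Ltf 4402, 5166 and 4696 CPM (1.07). Stefin A genes stood out, and 4 of 6 rose. Cstdc5 was at 63.3, 75.8 and 202 CPM (3.19, 2.95 to 3.44), Stfa2 at 57.8, 41.5 and 130 CPM (2.24), Stfa3 at 48.3, 29.5 and 98.2 CPM (2.03) and Stfa1 at 127, 109 and 241 CPM (1.90). These were higher in IR+CBD than in either other library, the median log2 ratio being 1.02 for IR+CBD and -0.22 for IR. They were found in a minority of the gate, such as 97 of 1004 Control and 134 of 1215 IR+CBD cells for Stfa1.

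Of 44 interferon genes in Retnlg cells 7 rose and 2 fell, among them Rsad2 at 7.29, 75.9 and 23.6 CPM (3.23), with a median log2 ratio of 0.18. Globins were again high, at 398, 3289 and 2454 CPM for Hbb-bs, in 44 Control and 161 IR+CBD cells, and their median log2 ratio of 2.30 was 1.07 without predicted doublets. Nrg1 (10.9, 1.82 and 2.26 CPM, 0.208) and Auts2 (55.5, 19.0 and 13.9 CPM, 0.25) fell. Pf4, a platelet chemokine, had a ratio of 0.0317, which was 0.643 without predicted doublets.

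The Siglech gate was small, with 273 Control and 79 IR+CBD cells, and 218 of 6085 genes rose (3.58%) while 303 fell (4.98%). Leading pDC genes were within 1.5-fold of Control in these cells, as Tcf4, the master regulator of the lineage, measured 2391, 2251 and 2953 CPM (1.23), Bst2 2219, 2694 and 2716 CPM (1.22) and Irf8 1685, 1487 and 1969 CPM (1.17). Of 11 pDC genes none rose and 2 fell, Cd209d, a lectin (96.8, 35.7 and 8.35 CPM, 0.0862, in 73 and 4 cells), and Lag3, an inhibitory receptor (38.6, 21.1 and 11.9 CPM, 0.308, in 78 and 9 cells). G2/M genes had a median log2 ratio of 0.55 with 7 of 23 risen, such as Bub1b at 27.0, 43.8 and 52.5 CPM (1.94, 1.32 to 2.82), and S phase genes one of -0.53 with 9 of 22 fallen and 1 risen, such as Mcm2 at 60.6, 45.5 and 28.6 CPM (0.472, 0.295 to 0.723). The S phase median was 0.15 with cells thinned to 2000 UMIs. Most of the leading genes of the gate rested on few cells, as for Car1, a red cell enzyme with 1 Control cell holding 64.9% of its UMIs, and Dach1, with 71.3% in 1 IR+CBD cell.

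Cells with Cd34 and Adgrl4 had 248 of 14834 genes risen (1.67%) and 750 fallen (5.06%). Megakaryocyte genes fell in 3 of 5 tested members, with a median log2 ratio of -1.24 for IR+CBD and -1.11 for IR over Control. Pf4 measured 54.1, 10.4 and 11.6 CPM (0.215) and Vwf, the von Willebrand factor, 2.78, 1.56 and 1.37 CPM (0.491). The treated cells were close to IR in both. A single Control cell held 35.8% of the Pf4 UMIs.

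Of 15 stem cell markers in this gate 4 fell and 1 rose. Hlf measured 49.3, 21.5 and 27.7 CPM (0.562), Prdm16 8.29, 3.77 and 3.99 CPM (0.481), Fgd5 1.68, 0.402 and 0.773 CPM (0.459) and Procr, the protein C receptor, 3.40, 1.88 and 2.01 CPM (0.592, 0.473 to 0.736), while Slamf1 stood at 1.00, 1.22 and 1.78 CPM (1.78, 1.33 to 2.38). Mecom, at 84.5, 69.7 and 93.5 CPM, and Hoxa9, at 45.0, 37.7 and 42.8 CPM, were within 1.5-fold of Control. The median over the list was -0.26, and 0.11 once cells of several gates were left out. Multipotent and lymphoid progenitor genes fell in 3 of 6 tested members, Flt3 (71.1, 36.4 and 42.2 CPM, 0.593), Il7r (11.2, 4.6 and 4.65 CPM, 0.415) and the chromatin organiser Satb1 (78.3, 41.3 and 46.0 CPM, 0.588).

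Immediate early genes fell in 9 of 25 members in these cells, with a median log2 ratio of -0.51. Nr4a1 stood at 120, 31.2 and 50.6 CPM (0.421), Nr4a3 at 13.4, 3.71 and 4.42 CPM (0.329), Egr1 at 201, 80.1 and 105 CPM (0.523) and Fos at 332, 175 and 192 CPM (0.579). MHC class II genes fell in 6 of 10, among them the invariant chain Cd74 (26.0, 19.0 and 13.9 CPM, 0.532) and H2-Eb1 (5.74, 4.11 and 1.89 CPM, 0.329), with a median of -0.80 that was 0.12 after thinning. Interferon genes, with 1 of 50 risen, 4 fallen and a median of 0.05, were near Control. Nrg1 had one of the lowest ratios, with 33.5, 8.37 and 3.45 CPM (0.103, 0.0885 to 0.119), found in 784 Control and 128 IR+CBD cells, although after thinning it was 1.39. Slit2 and Ly6k rose as in Mpo cells, with which this gate shares most of its cells, but Slit2 had a ratio of 0.773 once cells of several gates were left out.

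Some genes differed from Control in almost every gate. Of 9394 genes tested in 5 or more gates 9 rose and 23 fell in at least 5, and of 5950 tested in all 6 gates 1 rose and 5 fell in all 6. Since the gates share cells and the genes were picked for this pattern, these counts are descriptive. Ccnd1, the cyclin D1 that drives cells into division, was the gene risen in all 6: it measured 13.4, 40.4 and 29.4 CPM among Mpo cells, 10.2, 19.6 and 24.3 CPM among Klf1 cells, 8.29, 14.6 and 15.9 CPM among Cd79a cells and 3.80, 8.76 and 9.93 CPM among Retnlg cells. Siglech cells had the highest level, with 249, 294 and 415 CPM, and cells with Cd34 and Adgrl4 had 19.5, 50.9 and 43.3 CPM. The log2 ratio ran from 0.73 in the Siglech gate to 1.38 in the Retnlg gate. In all kept cells the ratio was 1.60 (1.53 to 1.67). Over the alternative settings that ratio ran from 1.03 to 2.07, the highest with gates weighted as in Control, so its size depended on the processing.

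The genes fallen in all 6 gates were Pard3b, a cell polarity protein, Ldhb, a subunit of lactate dehydrogenase, Auts2, Nr4a1 and the zinc finger gene Zfp521. In all kept cells Pard3b stood at 51.4, 21.9 and 19.8 CPM (ratio 0.385), Ldhb at 19.4, 5.79 and 8.17 CPM (0.421), Auts2 at 124, 55.6 and 48.1 CPM (0.388) and Zfp521 at 19.0, 8.59 and 9.07 CPM (0.478). Their log2 ratios lay between -3.12 for Pard3b in Siglech cells and -0.61 for Zfp521 in the same gate. Nrg1, Klk8, Serpinf1, Mir99ahg and Ube2e2 fell in the 5 gates in which they were tested. Risen in 5 gates were the 4 globins, Tjp1, Gdf3, Cxcl10 and Pmaip1, the p53 target Noxa, whose log2 ratio ran from 0.22 in Klf1 cells to 0.94. The globins changed sign under an alternative in 2 of these gates. Their median log2 ratio turned to -1.57 in Cd79a cells without cells of several gates and to -0.090 in cells with Cd34 and Adgrl4 after thinning. In Mpo and Retnlg cells it stayed above 0 but was much lower without predicted doublets, as given above. Opposite directions also occurred, and 82 of 14727 genes tested in at least 2 gates rose in one gate and fell in another.

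**Figure D5:**
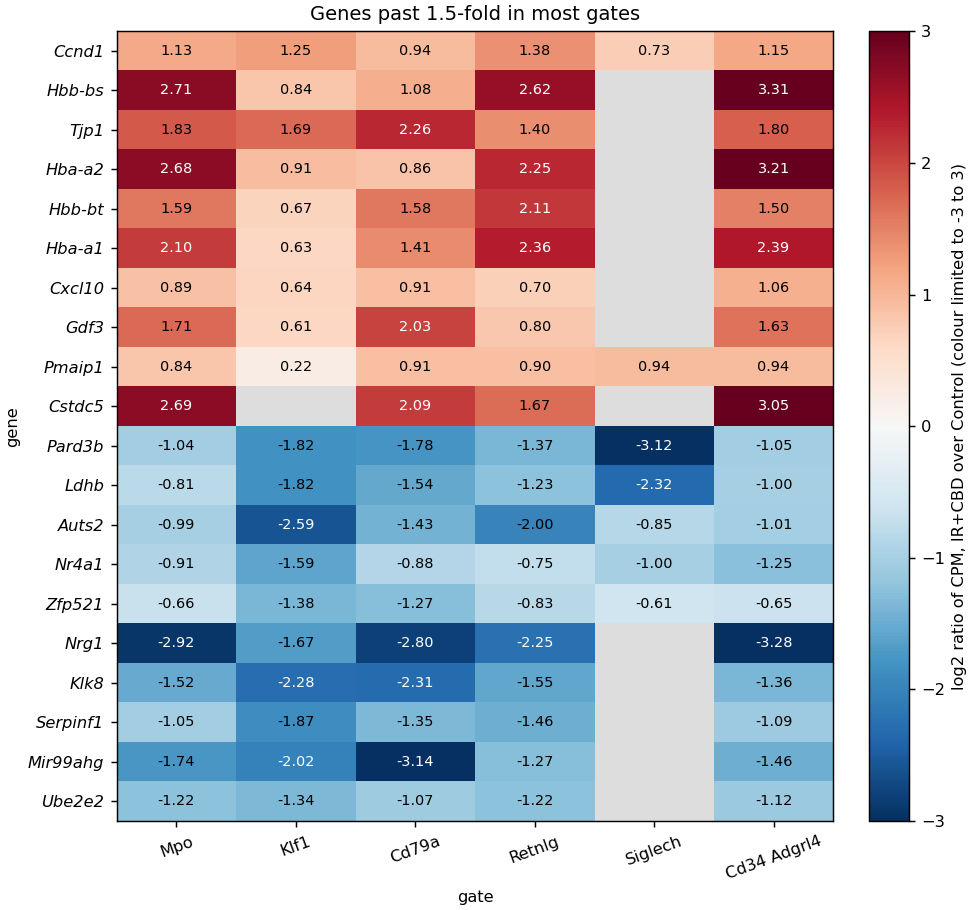
Log2 CPM ratio, IR+CBD over Control, of the 10 genes risen and the 10 fallen in most gates (rows) in each gate (columns), on a colour scale limited to -3 and 3, with each ratio printed and grey where a gene was not tested. Ccnd1 lies between 0.73 and 1.38 in the 6 gates, and Nr4a1 between -1.59 and -0.75.

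The promoters of these 20 genes were searched for the letters GAAANNGAA, a core bound by interferon regulatory factors, TGACGTCA, the site of the ATF and CREB family, and TGAGTCA, the AP-1 site of Fos and Jun, on both strands in RefSeq windows from 250 bases before to 50 after the start of the gene (GRCm38.p6, which is not the build of the counts). Windows were found for 14 genes. Cxcl10 is shown because it rose in treated marrow while IR did not, and because it held more than 1 of the motifs. Both stretches lie on the minus strand and are written 5′ to 3′ with the motif in capitals, the first at chr5:92349064-92349132, where the motif begins 213 bases before the start, and the second at chr5:92348927-92348993, 74 bases before it.
Cxcl10, interferon regulatory core: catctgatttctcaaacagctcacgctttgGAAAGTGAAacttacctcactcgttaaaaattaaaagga
Cxcl10, AP-1 site: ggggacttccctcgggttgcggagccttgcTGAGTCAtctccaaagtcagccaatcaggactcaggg
The interferon regulatory core was present in 8.56% of all 32851 windows, the ATF and CREB site in 1.79% and the AP-1 site in 5.20%, and a match is a description of letters, not a site shown to be used. Beside Cxcl10, the core was also found in Hbb-bt and Pard3b, and the AP-1 site in Hbb-bs, 26 bases after the start. None of the 14 genes held the ATF and CREB site. In Mpo, Klf1, Cd79a and Retnlg cells and in those with Cd34 and Adgrl4 the log2 ratio of Cxcl10 was 0.89, 0.64, 0.91, 0.70 and 1.06.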

How the data were processed

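For each of 3 droplet libraries (Control, IR and IR+CBD, 1 per group, each the pooled marrow of 3 mice), the authors deposited whole-number UMI counts per gene and cell barcode, with no normalization. Submitters' notes name Cell Ranger 4.0 and GRCm39, while the deposited file headers name Cell Ranger 7.0.1, and the annotation release is not given in the sources used here. Whether intronic reads were counted changes with that version. No column of another sample was present.

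Following the study's methods, barcodes were kept at 200 or more genes and at most 5% of UMIs from mitochondrial genes. Unlike there, doublets were marked (Scrublet in scanpy 1.11.5, the highest-scoring 0.8% per 1000 cells) but removed only as an alternative. UMIs were summed over cells and scaled to CPM in Python 3.11.15 with pandas 2.3.3, numpy 2.4.6 and scipy 1.17.1 and drawn with matplotlib 3.10.9. Intervals are exact at 95%: Clopper-Pearson for shares, Poisson for CPM, conditional binomial for ratios. They cover counting error only, since 1 library per group allows no test. Genes entered with 1000 UMIs (all kept cells) or 100 (a gate) over both libraries, and list members with 20, on a log2 scale with a pseudocount of 0.5 UMI. On simulated data with 200 changed genes among 11469, the true ratio lay within the interval of 95.1% of genes in all kept cells. These counts were drawn from the Poisson law that the intervals assume. The simulation therefore checks the calculation only and cannot speak to UMIs that gather in single cells. Of its unchanged genes 0% passed 1.5-fold in all kept cells, but 2.43% did in the Siglech gate.

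Named genes were the 12 highest and 12 lowest in all kept cells and the 6 in each gate by the bound nearest to 1, the 10 that differed in most gates in each direction, and from each of 49 lists (835 genes) the 3 with most UMIs and both extremes. Fewer are printed than the rule named, and some other list members are printed beside them as examples chosen after their values were seen. The cells, gates and lists were chosen with earlier results of these data known. Promoter letters came from RefSeq (GRCm38.p6). Alternatives changed the cell filters, doublets, gates, depth, scaling, pseudocount and UMI minimum.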

Additional observations from a re-analysis of the deposited data

Results flagged for a closer look

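Of the named genes, 6 rose in IR+CBD over Control in one gate and fell in another, with the whole interval past 1.5-fold on both sides and no cell holding over 50% of the UMIs, a limit chosen after the data were seen. The difference between gates was not tested for any of them. Elane, neutrophil elastase, was 1.76 times Control in Klf1 cells (147 and 260 CPM, in 343 and 644 cells) and 0.478 times in Siglech cells (573 and 274 CPM, in 118 and 27 cells). Lgals3 was 2.22 times Control in Siglech cells and 0.510 times in Mpo cells. The basophil proteases were higher in Cd79a cells: Mcpt8 had a ratio of 1.89 in Cd79a cells and 0.317 in Klf1 cells, and Prss34 of 2.23 in Cd79a cells and 0.179 in cells with Cd34 and Adgrl4, which was 33.5 once cells of several gates were left out. Prss34 came from 67 Control and 56 IR+CBD cells of the Cd79a gate. Slc25a21, a mitochondrial carrier, was 2.93 times Control in Retnlg cells (47 and 100 cells) and 0.0467 times in Siglech cells (14 and 3 cells), but there 1.37 without predicted doublets, which ends the opposition. Trbc1, a T cell receptor chain, was 2.40 times Control in Mpo cells (20 and 17 cells) and 0.196 times with Cd34 and Adgrl4 (36 and 8 cells).

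Barcodes outside the comparison also differed. Those with under 200 genes were 3.64% of all deposited barcodes in IR+CBD (3.31% to 3.99%), against 0.361% in Control and 2.09% in IR. Globin transcripts made up 4.38% of the UMIs of these barcodes in IR+CBD (4.31% to 4.44%), against 0.00816% in Control and 7.32% in IR.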

How the results depend on the processing

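No paired analysis was possible because each group is 1 library, and for the same reason no replicate could be left out. Shares kept their direction under every alternative run, and 30 of 36 moved by less than their interval. The Mpo ratio of 1.13 was 1.63 without cells of several gates, 1.20 with thresholds doubled and 1.67 in cells thinned to 2000 UMIs. Klf1 went from 2.09 to 1.54 when thinned, and Cd34 with Adgrl4 from 0.657 to 0.325 without cells of several gates and 0.502 when thinned. Of 142 settings for gene counts 100 stayed within 1.5 times. By construction thinning leaves fewer genes above the minimum, and the genes risen and fallen became 37 and 68 in all kept cells, 86 and 89 in Mpo, 10 and 0 in Klf1, 110 and 219 in Cd79a, 41 and 78 in Retnlg, 15 and 29 in Siglech and 116 and 192 in Cd34 with Adgrl4 cells. With no minimum of UMIs more genes enter, with 5221 and 7821 in all kept cells and, in the same order of gates, 5213 and 6578, 5408 and 6638, 5192 and 6255, 4957 and 5063, 3555 and 6467, and 5043 and 7505. Weighting gates as in Control gave 77 and 146. Without cells of several gates 201 genes fell in Mpo, and 107 rose in Retnlg and 120 in Siglech cells. Doubled thresholds gave 402 fallen in Klf1 and 368 risen in Siglech cells. Without predicted doublets 260 fell in Cd79a, 119 rose and 161 fell in Retnlg, and 128 rose in Siglech cells. Mean per-cell CPM gave 659 fallen in Mpo, 665 in Cd79a and 1211 in Cd34 with Adgrl4 cells.

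Of the list medians in all kept cells, immediate early genes went from -0.52 to -0.32 when thinned, -0.31 with per-cell CPM and -0.27 when weighted. Globins went from 1.97 to 2.11 with a minimum of 1000 genes per cell, 1.72 when thinned, 1.49 with per-cell CPM and 1.48 when weighted. Primary granule genes went from 0.04 to 0.46, 0.40 and 0.14 under the last 3 of these, secondary granule genes from 0.30 to 0.38 when thinned, 0.34 with per-cell CPM and 0.33 when centred on the median of all genes but to 0.098 when weighted, and stem cell genes to 0.036 when weighted. Of 3739 settings for lists 3359 moved little and 21 changed sign. With thinning these were red cell membrane genes in Mpo (-0.026) and Cd34 with Adgrl4 cells (-0.042), erythroid factors in Cd79a (-0.44), Retnlg (-0.28) and Siglech cells (0.19), monocyte genes in Retnlg (0.18), heme genes in Siglech (0.41), and MHC class II (0.12), globins (-0.090) and NK genes (0.85) in Cd34 with Adgrl4 cells. Without doublets they were secondary granule genes in Klf1 (0.28) and MHC class II (0.18), megakaryocyte (0.40), pre-B (1.13) and basophil genes (-2.27) in Retnlg cells. Without cells of several gates they were globins (-1.57), erythroid factors (-0.081), stefin A (-1.48) and eosinophil genes (-0.45) in Cd79a and erythroid factors (-0.0040) and basophil genes (-0.61) in Retnlg cells.

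Of 3222 settings for single genes 20 turned. With thinning the ratios were 1.39 for Cd5l and 0.930 for Eda2r in all kept cells, 1.03 for Ighv11-2 in Cd79a, 0.338 for Retnlg in Siglech (0.156 with doubled thresholds) and 1.39 for Nrg1 in Cd34 with Adgrl4 cells. Per-cell CPM gave 0.830 for Eda2r and 1.20 for Igfbp5, and weighting 1.19 for Esam. Without cells of several gates the ratios were 0.805 for Prg2 in Klf1, 0.404 for Prg2 in Cd79a, 0.751 for Ebf1 in Siglech, and 33.5 for Prss34 and 0.773 for Slit2 in Cd34 with Adgrl4 cells. Without doublets they were 0.582 for Igkv14-100 in Cd79a, 0.138 for Ccl5 and 2.23 for Dntt in Retnlg, and 0.316 for Dach1, 0.912 for Ebf1 and 1.37 for Slc25a21 in Siglech cells. Apart from the minimum of UMIs, the cause was not tested. Depth limits the Siglech gate most, where 79 treated cells gave 838821 UMIs.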

Other observations

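Lymphoid genes outside the B lineage moved in both directions in the sum of all kept cells. Of 4 T cell genes tested 3 fell, with a median log2 ratio of -0.66, and the T cell markers summed to 34.2 CPM in Control and 20.1 CPM in IR+CBD. Of 3 NK cell genes tested 1 rose and 1 fell, Klrd1 having a ratio of 0.473, and the median log2 ratio of the list was -0.55. The NK cell markers still summed to 309.8 and 359 CPM. Their sum was larger in Mpo cells, at 452 and 634 CPM, so it did not follow NK cells alone. The granzyme gene Gzma rose with 6.48, 12.5 and 11.4 CPM (1.77) in 100 Control and 56 IR+CBD cells. Cd4 measured 0.698, 0.163 and 0.225 CPM in Control, IR and IR+CBD and was found in 99 Control and 26 IR+CBD cells (ratio 0.322, 0.22 to 0.463). Fcer2a, the low affinity IgE receptor of mature B cells, measured 1.66, 0.371 and 0.576 CPM (0.348) in 192 and 59 cells. Markers of basophils and mast cells had a median log2 ratio of -0.36 and summed to 393 CPM in Control and 271 CPM in IR+CBD. Cpa3, a mast cell protease, stood at 75.2, 61.4 and 58.5 CPM (0.777), and Mcpt8 and Prss34 had ratios of 0.731 and 0.561. Against them Fcer1a, the IgE receptor chain of these cells, rose with 5.64, 11.8 and 9.92 CPM (1.76) in 146 and 214 cells.

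Among chemokine and NF-kB feedback genes, Ccl4 measured 133, 58.5 and 75.7 CPM (0.569) and the activation marker Cd83 6.19, 2.29 and 2.87 CPM (0.463), opposite in direction to Cxcl10. Gm42047, a gene of unknown function, was higher in IR+CBD than in either other library, with 12.6, 9.98 and 24.8 CPM (1.97, 1.88 to 2.07) in 1136 Control and 1886 IR+CBD cells. Of the ATF and CREB family none of 14 tested members rose and the stress factors Atf4 (161, 145 and 145 CPM, 0.904) and Atf2 (65.0, 61.8 and 65.8 CPM, 1.01) were within 1.5-fold of Control. The transcript of Y-linked Ddx3y stood at 59.0, 51.1 and 56.8 CPM.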
